A study of Mus musculus with 72 samples.

Results

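The 100 rows described here are features of a count table from mouse white adipose tissue whose level was higher in both the Bmal1 knockout and the LRE genotype than in WT. They were chosen from measured values. In each of 60 libraries, counts were scaled to CPM (the count divided by the library total, on the usual per-million scale), and rows with a count in at least 40 of the 60 libraries were kept. For each kept row the median of log2(CPM + 10) over the 20 libraries of a genotype was taken. The rule value of a row is the lower of the KO and LRE medians minus the WT median, and the 100 rows with the largest rule values are the members, ranked from 1 (largest). The rule kept 8485 of the 32377 rows of the table, so the members are 100 of 8485 kept rows. Libraries of zeitgeber time 16 h (ZT16, hours after lights-on) were not used by the rule.

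Per the labels, 72 samples of the tissue eWAT fall into 3 genotypes, WT, LRE and full-body Bmal1-KO (KO), with 4 replicates at each of ZT0, ZT4, ZT8, ZT12, ZT16 and ZT20. The series title names the liver clock and daily rhythms in white fat as its subject. LRE is not spelled out in the labels. In related mouse studies, a liver-reconstituted line is a Bmal1 knockout in which Bmal1 is put back in hepatocytes; that this is what LRE means here is not stated in the sources used. If so, KO and LRE would share the loss of Bmal1 in fat. Age, sex and strain of the mice are not in the labels. The series' design line speaks of AML12, a mouse hepatocyte line, and of Smart-seq3, whereas each sample is labelled as tissue; the sample labels were followed. Nothing in the labels ties replicates to separate animals, so the tests measure the spread between these libraries, which may be technical.

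BMAL1 pairs with CLOCK to switch on genes that carry E-box elements, among them Per and Cry genes, whose products then repress the pair; this loop sets daily transcription in most tissues. White adipose tissue stores triglyceride and releases fatty acids and hormones such as leptin, and it holds vessel, immune and stromal cells beside adipocytes. Its daily rhythms are known to follow both its own clock and feeding and hormonal signals from elsewhere in the body. Rows of this table carry no gene identifier, so members are called by rank, and neither the loss of Bmal1 nor markers of adipocytes or other cell types were analysed here. The row numbers, counted from 1 after the header, are 16827 for rank 1 and 28056 for rank 2.

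Libraries were shallow, with 5293 to 508821 counts and a median of 86032, so 1 count equals 11.6 CPM at the median total. The 4 WT libraries of ZT16 stood apart: their 10 largest rows held 3.74% to 9.35% of counts, against 13.2% to 54.0% in the other 20 WT libraries. WT ZT12 replicate 2 (37.8%) and WT ZT20 replicate 4 (54.0%) had the most counts on their 10 largest rows, and KO ZT16 replicate 1 was the shallowest library. The library names carry a letter and a number, and the number follows genotype: 1 and 2 for WT, 2 and 3 for LRE, 4 and 5 for KO. KO shares no number with WT or LRE, so genotype and this number cannot be told apart for KO against WT or LRE against KO. LRE and WT share number 2, but at no single time, so the same holds for LRE against WT within a time.

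The rule values ran from 3.55 for rank 1, 3.16 for rank 2 and 2.68 for rank 4 down to 0.80 for ranks 97 to 100. Of the 100 members, 9 had a value of at least 2 and 53 of at least 1. The median over all kept rows was -0.10, and 5252 of the 8485 were below 0. The edge of the list is not a gap. Ranks 99 and 100 had values of 0.799 and 0.797, and the first rows left out had 0.796 and 0.794. Median levels of rank 100 were 35.2 CPM in WT, 68.4 in LRE and 79.2 in KO, and those of the first row left out were 7.40, 20.3 and 26.9 CPM. These values chose the members and are given as a description. In bulk tissue, a row that is higher because more cells of a type are present cannot be told apart from one that is higher in each cell.

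Many members were rows with few counts. Over KO and LRE libraries, the median level was under 50 CPM for 45 members, and over 100 CPM for 32, and rank 82 was far above the rest. Only 12 members had a count in all 60 libraries, and 12 had a WT median of 0. KO medians lay above LRE medians in 59 of 100 members, against 52.5% of kept rows. KO exceeded LRE by at least 1 log2 unit in 13 members, and LRE exceeded KO by that much in 0. Within a genotype and time the members also varied more than other rows: the median within-group SD on the log2(CPM + 10) scale was 0.92 for members and 0.79 for kept rows.

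**Figure D1:**
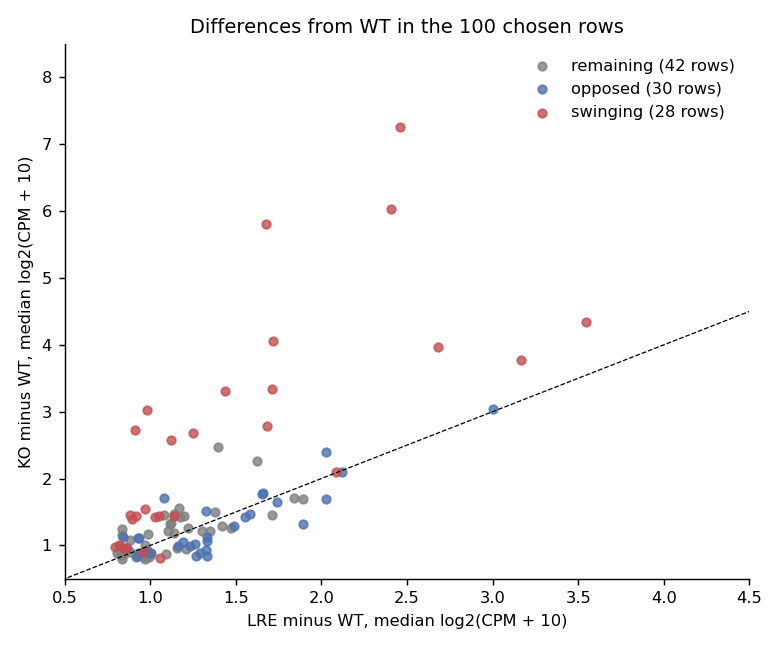
Difference from WT of each of the 100 members in LRE (x axis) and KO (y axis), as medians of log2(CPM + 10) over 20 libraries per genotype; 1 point is 1 row, coloured by how it varied within groups, and the dashed line marks equal differences. The 13 rows with KO at least 1 unit above LRE lie well above the line, and no row lies that far below it.

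Within groups the members did not vary independently. After each group's mean was removed, a single axis (the first principal component of the 100 members over the 60 libraries) held 43.5% of the variance left, and the next held 9.20%. Rows were sorted by their correlation with this axis. Those at 0.5 or above are called swinging rows (28 members), those at -0.3 or below opposed rows (30 members), and the others remaining rows (42 members). These cutoffs were set after the values were seen, and the sets serve description only. Pairs of swinging rows had a median correlation of 0.54 across the 60 libraries, pairs of opposed rows 0.38, and a swinging row with an opposed row -0.38. Of all kept rows, 5.09% reached 0.5 and 18.2% reached -0.3, so rows outside the list vary along the same axis. Within groups the axis correlated at 0.43 with the number of rows detected in a library, at 0.07 with its log total and at -0.09 with the share of its 10 largest rows; the part of these in the axis was not tested.

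Swinging rows switched between near absence and abundance from library to library. As a set they held more than 1% of a library's counts in 1 of 20 WT libraries, 8 of 20 LRE libraries and 10 of 20 KO libraries at the 5 times the rule used. The WT library was ZT0 replicate 4, with 3.94%; the other 19 ranged from 0.0321% to 0.239%. In LRE, high libraries were found at ZT0 (3 of 4), ZT4 (2 of 4) and ZT20 (3 of 4), and in KO at ZT0 (2 of 4), ZT4 (3 of 4), ZT8 (3 of 4) and ZT12 (2 of 4). The 8 LRE libraries of ZT8 and ZT12 lay between 0.0246% and 0.106%, and the 4 KO libraries of ZT20 between 0.0582% and 0.0768%. These 12 libraries lay within the range of the other 19 WT libraries, except LRE ZT12 replicate 3 (0.0246%), which was below it. At ZT16, which the rule did not use, all 4 LRE (1.80% to 11%) and all 4 KO libraries (2.30% to 6.71%) were above 1%, and so were 2 of 4 WT libraries. The WT values at ZT16 were 2.63%, 0.664%, 0.585% and 2.74%. Rank 5, singled out after its values were seen, held a median of 27.6% of swinging counts (0% to 75.5% over the 72 libraries) and rank 32 held 12.9%. Rank 5 had 339 of the 34595 counts of LRE ZT16 replicate 2, where the set held 1.80%. It had 1136 of the 86266 counts of KO ZT16 replicate 4, where the set held 2.30%. The counts of libraries above 1% therefore depend in part on rank 5, and were not repeated without it.

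Opposed and swinging rows were split by the sign of their correlation with the axis, so their opposition within groups follows from that split. In LRE and KO, opposed rows were high at the times when swinging rows were low. This did not hold in WT at ZT12, where swinging rows held 0.0424% to 0.143% of counts and opposed rows 0.267% to 0.482%. Opposed rows held 1.91% to 2.98% of counts in LRE at ZT8, 2.05% to 3.31% in LRE at ZT12 and 1.77% to 2.80% in KO at ZT20. They also held 1.58% to 2.86% in KO at ZT0. Over the 20 WT libraries of the 5 times they held 0.0429% to 1.29%. In all, 25 of 40 KO and LRE libraries (13 LRE, 12 KO) were above the highest WT library. Rank 82 alone held a median of 67.8% of opposed counts. Without it, 15 of 20 LRE and 14 of 20 KO libraries were above the highest WT library (0.331%). At ZT16 the WT share was 0.0448% to 0.293%, below 3 of 4 LRE libraries (0.109%, 1.02%, 0.372% and 1.17%) and all 4 KO libraries (0.397% to 1.31%).

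Remaining rows are by definition those that followed the axis least, and the libraries below chose them, so their raised and even share follows from how they were picked and is a description. The share was 0.0539% to 0.223% in the 20 WT libraries, 0.205% to 0.472% in LRE and 0.212% to 0.449% in KO, and 38 of 40 LRE and KO libraries were above every WT library of the 5 times. At ZT16 the WT share was 0.235% to 0.338%, while LRE had 0.338% to 0.463% and KO 0.303% to 0.499%, so KO and WT overlapped there. The largest members of this set, rank 20 and rank 89 (the latter chosen after its values were seen), held medians of 10.2% and 10.1% of its counts.

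**Figure D2:**
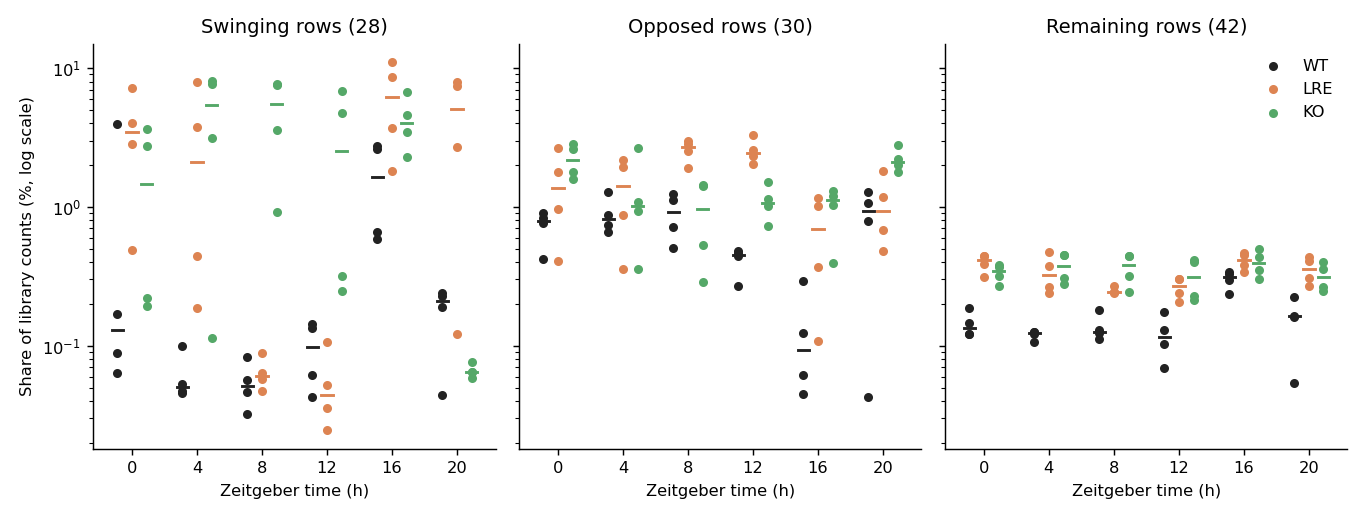
Share of each library's counts (%, log axis) on the 28 swinging, 30 opposed and 42 remaining members against zeitgeber time, with 1 point per library, 4 libraries per genotype and time, and the group median as a bar. Swinging rows are as low as in WT outside ZT16, or in 1 library lower, in LRE at ZT8 and ZT12 and in KO at ZT20; opposed rows are high at those times, and remaining rows separate from WT in 38 of 40 libraries outside ZT16.

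Rank 1 shows the swinging pattern. In WT outside ZT16 its level was 0 CPM at the lowest, 16.04 at the median and 5586 at the highest, with counts in 14 of 20 libraries. In LRE it ran from 0 to 8012 CPM (median 295) and in KO from 0 to 5415 CPM (median 541). The 20 WT libraries held 1 value above 200 CPM, the ZT0 replicate 4 value. At ZT8 rank 1 was at 0, 0, 0 and 27.7 CPM in LRE and at 3983, 1055, 386 and 3913 CPM in KO, without overlap. At ZT20 the order was turned around: LRE had 70.3, 5571, 3584 and 903 CPM, and KO had 0, 0, 8.24 and 8.44 CPM. At ZT16 WT had 2730, 297, 214 and 768 CPM, and overlapped with the 4 LRE (517 to 4030 CPM) and the 4 KO libraries (189 to 1678 CPM). The 189 CPM is a single count in KO ZT16 replicate 1.

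Ranks 2 and 4 were high and low in largely matching libraries. Rank 2 had 15450 CPM in WT ZT0 replicate 4, the highest value of all 72 libraries, and a WT median of 10.7 CPM against 182 in LRE and 274 in KO. Rank 4 had a WT median of 16.02 CPM, with 5980 in that WT library, and medians of 157 in LRE and 397 in KO. Rank 32, detected in all 60 libraries, never fell to 0: its WT range was 70.7 to 453 CPM (median 177), its LRE range 23.6 to 13246 (median 444) and its KO range 33.0 to 6774 (median 1271). In KO at ZT20 rank 32 was at 87.8, 149, 33.0 and 92.8 CPM, and in LRE at ZT20 it was at 156, 9713, 6404 and 2913 CPM. Rank 100, the last swinging row, had a narrower range of 0 to 241 CPM over the 60 libraries.

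Rank 82 was the most abundant member and an opposed row. Outside ZT16 it ran from 126 to 10858 CPM in WT (median 5549), from 2039 to 25226 in LRE (median 13368) and from 1637 to 20279 in KO (median 9992). The genotypes overlapped over the day, but at ZT12 the 4 WT libraries (2971, 1770, 2658 and 2942 CPM) lay below the 4 LRE (16560, 19499, 25226 and 13877 CPM) and the 4 KO libraries (6852, 9890, 5723 and 5188 CPM). At ZT16 WT had 1989, 98.3, 664 and 106 CPM, LRE 411, 6215, 1989 and 7511 CPM, and KO 6424, 2313, 8890 and 6689 CPM. KO was above WT in every library there, and LRE was not.

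Rank 7 separated the genotypes further. Its WT range outside ZT16 was 0 to 488 CPM (median 215), with 159 to 1558 in LRE (median 965) and 156 to 1748 in KO (median 949). At ZT16 WT had 71.0, 3.93, 2.28 and 4.25 CPM, LRE 53.6, 809, 297 and 831 CPM, and KO 756, 211, 771 and 1194 CPM. All 4 KO libraries and 3 of 4 LRE libraries were above the highest WT library. Rank 52 ran from 99.5 to 578 CPM in WT (median 342), 248 to 1502 in LRE (median 832) and 181 to 1046 in KO (median 707). Rank 3 was near absent in WT, with counts in 9 of 20 libraries and at most 20.1 CPM. All 20 LRE libraries (10.3 to 172 CPM) and 18 of 20 KO libraries (0 to 342 CPM) had counts. With counts in so few WT libraries, the filter itself required counts in most KO and LRE libraries. For all rows described singly, differences from WT outside ZT16 come from libraries the rule used and are a description.

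Rank 20 is the largest remaining row. Its WT range was 13.4 to 474 CPM (median 77.3), with 25.3 to 1252 in LRE (median 258) and 56.9 to 708 in KO (median 407). LRE was at 711, 862, 820 and 536 CPM at ZT0 and at 96.5, 61.6, 66.0 and 41.6 CPM at ZT8. KO at ZT8 was at 686, 246, 193 and 708 CPM, above all 4 LRE libraries. Rank 14, in the row next to it in the table, varied with it (correlation 0.70 within groups over 60 libraries, as a description), at 0 to 117 CPM in WT, 0 to 346 in LRE and 0 to 205 in KO. Ranks 97, 98 and 99 were too low to be tested: their highest value over the 60 libraries was 113, 84.9 and 88.9 CPM, and each had libraries at 0 in all 3 genotypes.

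**Figure D3:**
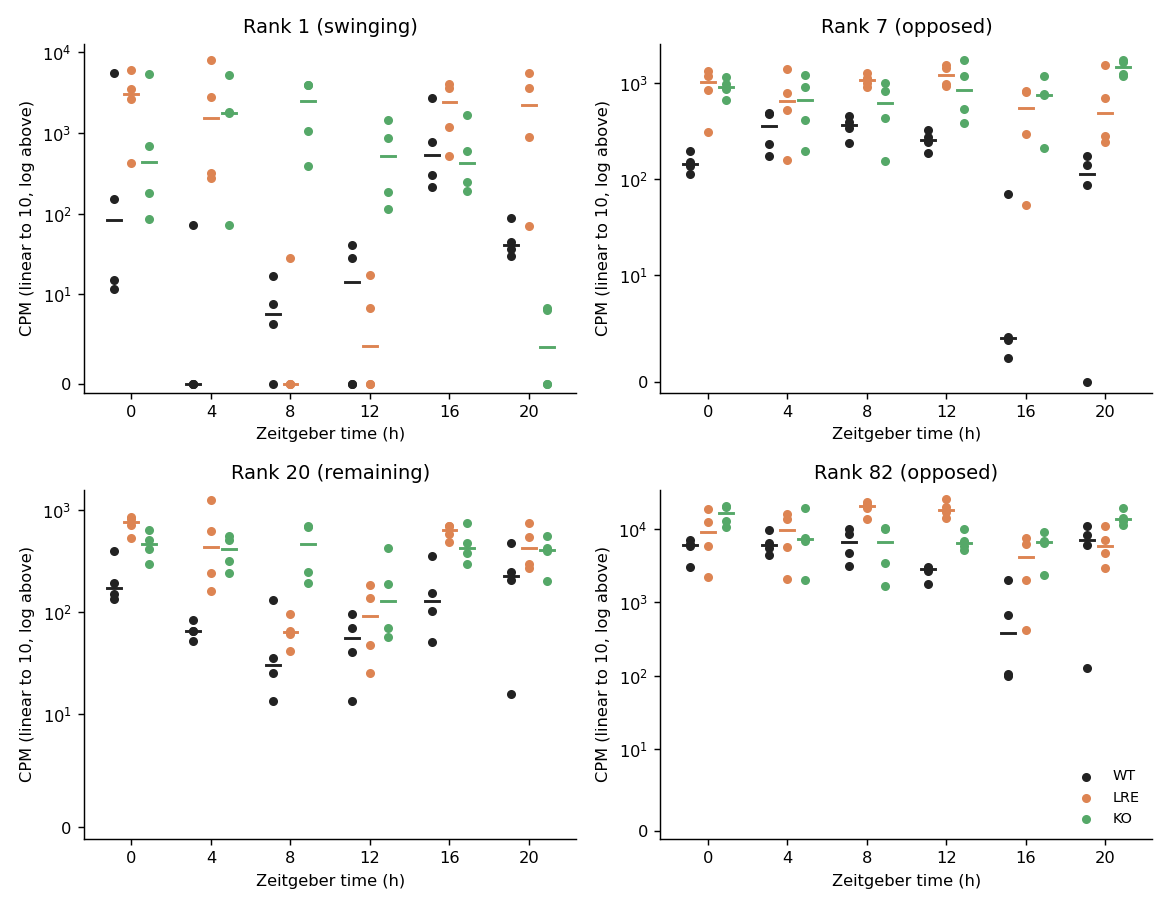
Level of ranks 1, 7, 20 and 82 in each of the 72 libraries (CPM, linear up to 10 and logarithmic above) against zeitgeber time, 4 libraries per genotype and time with the median as a bar. Rank 1 is near 0 in LRE at ZT8 and in KO at ZT20. It reaches 5571 CPM in LRE at ZT20 and 3983 CPM in KO at ZT8. The group medians of ranks 7 and 82 are lowest in WT at ZT16.

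By time of day, the median swinging row in LRE stood 2.46 (ZT0) and 2.07 (ZT4) log2 units above its own WT median, was at -0.10 (ZT8) and -0.21 (ZT12), and stood 3.35 (ZT16) and 2.85 (ZT20) above it. In KO the values were 1.72, 3.47, 3.25, 2.18 and 2.71 from ZT0 to ZT16 and -0.10 at ZT20. In WT the same rows were 2.57 above at ZT16. The higher overall median of swinging rows in KO and LRE therefore covered times at which they were at the WT level. Opposed rows were above WT at every time, by 0.43 to 1.67 in LRE and by 0.55 to 1.85 in KO, and were at -1.06 in WT at ZT16. Remaining rows were the flattest, at 0.86 to 1.21 in LRE and 0.89 to 1.32 in KO, with WT at 0.58 at ZT16.

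**Figure D4:**
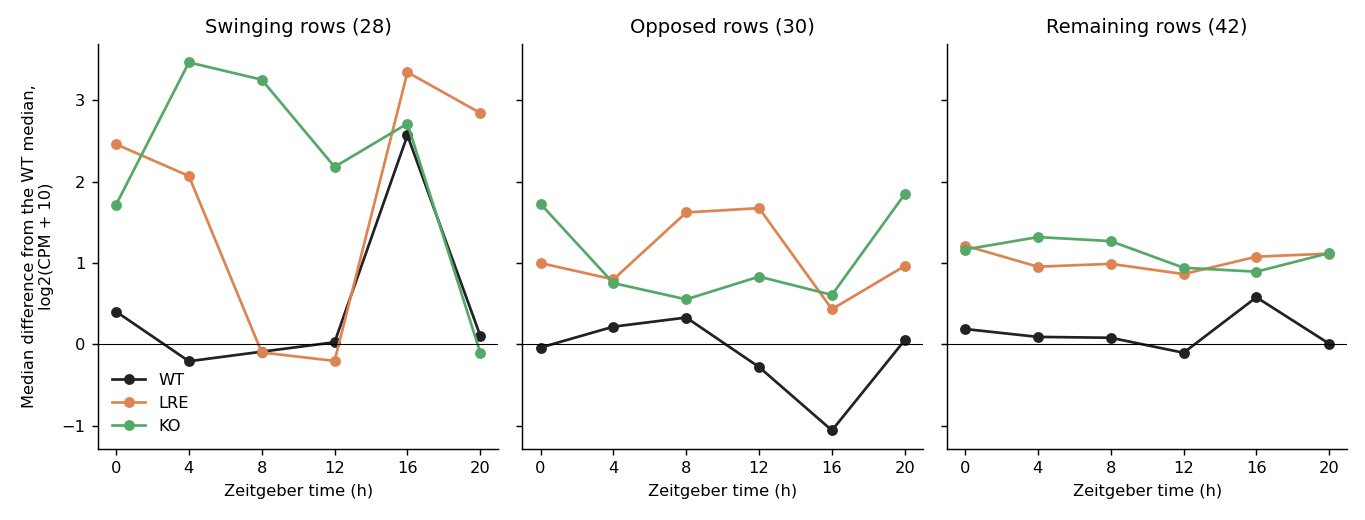
Median over the rows of each set of the group median of log2(CPM + 10) minus the row's WT median of the 5 times other than ZT16, against zeitgeber time, 1 line per genotype. The swinging rows drop to about 0 in LRE at ZT8 and ZT12 and in KO at ZT20, and the remaining rows stay near 1 in both genotypes.

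At the times the rule used, the number of members for which every KO library lay above every WT library was 35, 28, 40, 26 and 29 in order of time (ZT0, ZT4, ZT8, ZT12, ZT20), against 2.79%, 2.98%, 4.28%, 2.71% and 5.76% of the 8485 kept rows. For LRE over WT it was 21, 26, 28, 29 and 17, against 2.31%, 2.76%, 2.71%, 4.3% and 4.2%. These counts follow from the rule. Across all 5 times, 7 members had all 20 KO libraries above the WT median, 7 had all 20 LRE libraries above it, and 2 had all 40, against 0.165%, 0.153% and 0.0236% of kept rows. These too follow from the rule, and for all but those 2 members at least 1 of the 40 libraries was at or below the WT median.

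At ZT16, the time the rule left out, 23 of 66 tested members were higher in KO than in WT and 9 were lower (edgeR's quasi-likelihood test, adjusted p under 0.05 over 3724 rows). Of all tested rows 36.9% were called, 11.3% higher and 25.6% lower, against 48.5% of tested members: 34.8% higher and 13.6% lower. The other 34 members did not pass the filter on low counts. The median log2 fold change was 0.82 over tested members and -0.06 over all tested rows. Opposed rows made up most of the higher ones: 17 of 23 tested were called higher and 0 lower, with a median of 2.43. Part of this difference is a low WT level at ZT16, in the 4 WT libraries that stood apart. Against their own WT median of the other times, the 30 opposed rows were at -1.06 in WT and 0.61 in KO at ZT16. Of 23 swinging rows 1 was called higher and 5 lower, and of 20 remaining rows 5 were called higher and 4 lower. With every member tested in a fit without the filter, 27 of 100 were higher (background 4.82%) and 14 lower (23.3%). Under upper-quartile scaling 32 members were higher and 5 lower, against 30.7% and 16.8% of all tested rows, and the median of all rows moved from -0.06 to 0.65; relative to that median the members stood at 0.88 under the main scaling and 0.87 under upper-quartile scaling.

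In LRE against WT at ZT16, 18 of 66 tested members were higher (background 9.16%) and 6 lower (24.5%) by edgeR. The median log2 fold change was 0.98, against -0.04 over all tested rows. Of 23 opposed rows 10 were called higher and 0 lower (median 1.78). Against their own WT median of the other times, the 30 opposed rows were at -1.06 in WT and 0.43 in LRE at ZT16. Swinging rows gave 1 higher and 3 lower of 23, and remaining rows 7 higher and 3 lower of 20. The fit without the filter gave 21 higher (background 3.87%) and 10 lower (22.3%) of 100, and upper-quartile scaling 28 higher and 5 lower of 66. Under that scaling 29.0% of all tested rows were higher and 16.7% lower, and the median of all rows was 0.63 in place of -0.04; relative to it the members stood at 1.01, against 1.02 under the main scaling. Leaving out WT ZT16 replicate 2 or LRE ZT16 replicate 4 left 15 called members in place of 24, 10 higher and 5 lower in each case. The 15 are 22.7% of tested members, no more than the share of all rows called under these settings (24.1% and 28.7%), of which 5.05% and 6.04% were higher. The 2 comparisons share the 4 WT libraries that stood apart, so their lists are not independent: 16 rows were higher in both (69.6% of the KO list and 88.9% of the LRE list) and 6 were lower in both.

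**Figure D5:**
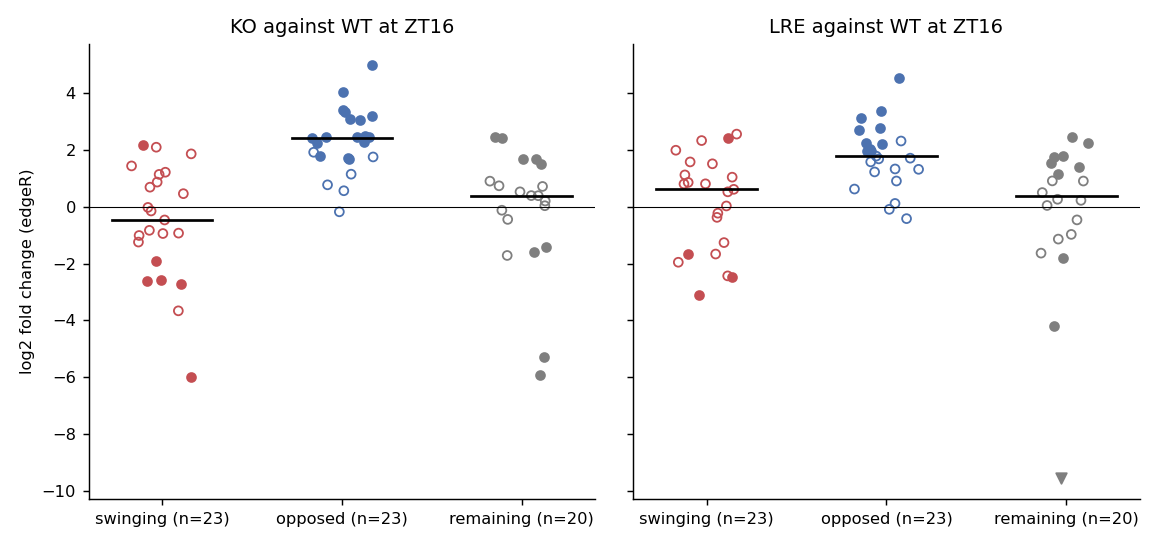
Log2 fold change against WT at ZT16 by edgeR for the 66 tested members, KO on the left and LRE on the right, by set; filled symbols have an adjusted p under 0.05, bars are set medians, and the triangle is rank 34, at 0 in all 4 LRE libraries, whose fitted value is not a measured size. In KO 17 of 23 opposed rows are called higher and 0 lower, while swinging and remaining rows lie on both sides of 0.

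Rank 7 had the largest positive log2 fold change of the rows described singly. It was 5.00 ± 0.79 (SE) in KO (edgeR adjusted p = 4.58e-07) and 4.55 ± 0.78 in LRE (adjusted p = 2.67e-06). Rank 52 was higher than in WT by 2.47 ± 0.48 in KO (edgeR adjusted p = 2.92e-05) and 2.21 ± 0.48 in LRE (adjusted p = 0.00016). Rank 82 was higher than in WT by 2.47 ± 0.72 in KO (edgeR adjusted p = 0.00503) and 2.02 ± 0.71 in LRE (adjusted p = 0.0222). The KO call of rank 82 was lost without replicate number 2 or 3 and with only the libraries of ZT16 (edgeR adjusted p = 0.0547, 0.0721 and 0.0689). Its LRE call was lost under 8 of 83 alternatives, among them leaving out WT ZT16 replicate 2 or 4 and LRE ZT16 replicate 2 or 4 (edgeR adjusted p from 0.0624 to 0.115). Rank 3 was not called, at 1.75 ± 0.79 in KO (edgeR adjusted p = 0.073; past 0.05 under 22 of 83 alternatives, such as 0.00704 with upper-quartile scaling) and 1.23 ± 0.85 in LRE (adjusted p = 0.262). Of the top swinging rows, rank 1 was not called, at -0.94 ± 1.18 in KO and 0.86 ± 1.16 in LRE. Rank 2 was lower in KO, against the direction of the list, at -5.98 ± 1.69 (edgeR adjusted p = 0.00358; 0.0649 without replicate number 1), and in LRE it was at -1.66 ± 1.31 (adjusted p = 0.33).

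The smallest p-values at ZT16 belonged to rows that went against the direction of the list. Rank 90 was at 173, 654, 402 and 297 CPM in WT at ZT16, above all 20 WT libraries of the other times (0 to 43.8 CPM), all 20 LRE libraries (0 to 90.4 CPM) and all 20 KO libraries (0 to 84.2 CPM). Its log2 fold change was -5.29 ± 0.62 in KO (edgeR adjusted p = 7.86e-10) and -4.21 ± 0.55 in LRE (adjusted p = 9.07e-09). Rank 34 had 203, 635, 625 and 514 CPM in WT at ZT16, 0 in all 4 LRE libraries and 0, 0, 0 and 46.4 CPM in KO. Rank 100, at 233 to 513 CPM in WT at ZT16, was lower too, with -2.59 ± 0.60 in KO (edgeR adjusted p = 0.000351) and -3.11 ± 0.62 in LRE (adjusted p = 4.11e-05). These rows were low in WT at the times the rule used and high in the 4 WT libraries that stood apart; the part of those libraries' composition in this was not tested.

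Counted without a model, every KO library was above every WT library at ZT16 in 15 of 100 members (background 4.74% of 8485 rows). For LRE this held in 19 (7.45%). The KO counts here depend on KO ZT16 replicate 1, which detected 42 of the 100 members. A row without a count there cannot pass, and 1 count there equals 189 CPM. The median difference over members was 0.83 in KO and 1.18 in LRE, against 0.09 and 0.23 over kept rows. Set against the 20 WT libraries of the other times, which the rule used, the KO libraries of ZT16 were all higher in 5 members (0.377%) and the LRE libraries in 11 (0.707%). On this comparison the median difference was 1.02 in KO and 1.20 in LRE over members, against -0.17 and -0.03 over kept rows. The LRE libraries of ZT0 and ZT4 and the WT libraries of ZT20 share the library number 2. There, all 8 LRE libraries were above all 4 WT libraries in 9 members (1.39%). The median difference was 1.36 over members, against 0.23 over kept rows. The times differ, and the rule used these libraries.

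The rule set KO and LRE each against WT and not against each other. It did favour rows that were high in both, and it used all times but ZT16. A low count of differences between LRE and KO in the average can therefore follow from the rule. Averaged over the 6 times, 0 of 66 tested members differed between LRE and KO by edgeR (background 0%) or by DESeq2 (background 0.725%). At an unadjusted p under 0.05 by edgeR were 1 member and 283 of all 3724 tested rows. At ZT0, ZT4 and ZT16, 0 members were called by edgeR (background 0% each) or by DESeq2 (0.0537%, 0.0269% and 0.161%). There, 4, 0 and 1 members had an unadjusted p under 0.05 by edgeR, against 209, 137 and 122 of all tested rows. These counts do not show that LRE and KO were alike, since single swinging rows had standard errors of over 1 log2 unit at a single time.

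At ZT8, 19 members were lower in LRE than in KO (background 9.29%) and 2 were higher (1.29%) by edgeR. Of the 19, 17 were swinging rows, whose median log2 difference was -4.99 over 23 tested. Rank 32 was at 109, 92.4, 173 and 83.2 CPM in LRE and 6751, 1720, 823 and 6774 CPM in KO, a log2 difference of -5.20 ± 1.08 (edgeR adjusted p = 0.0112). Rank 1 had an edgeR adjusted p of 0.0112 there, from the values given above. Neither was called without any of the 4 replicate numbers (edgeR adjusted p from 0.0508 to 0.0743), where 0% of all rows were called. The log2 difference in these fits was -5.90 to -4.69 for rank 32 and -10.6 to -7.83 for rank 1. The calls rest on few libraries, for all rows as for members. Without LRE ZT8 replicate 2 or 3, 0 of the 21 members were called (0.0269% and 0% of all rows). Without LRE ZT8 replicate 1 or KO ZT8 replicate 1 or 4, 11 were (1.40% to 1.56% of all rows under these 3 settings).

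At ZT20 the swinging rows went the other way. Here 14 members were higher in LRE than in KO (background 5.61%), all of them swinging rows with a median of 4.65 over 23 tested, and 2 opposed rows were lower (0.242%; 5.85% of rows in either direction). All 14 were among the 19 that were lower in LRE at ZT8. Rank 32 differed by 5.87 ± 1.11 (edgeR adjusted p = 0.00683), and rank 1 had an adjusted p of 0.00683. Both calls were lost without replicate number 2 or 3 (edgeR adjusted p from 0.188 to 0.267), where 0% of all rows were called. The opposed rows were ranks 17 and 28, at -2.04 ± 0.56 (edgeR adjusted p = 0.0242) and -1.94 ± 0.60 (adjusted p = 0.0406). Of the 16 called members, 5 were left without LRE ZT20 replicate 2, 8 without LRE ZT20 replicate 3, and 4, 7, 7 and 2 without KO ZT20 replicates 1 to 4 (0.242% to 1.21% of all rows under these 6 settings).

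At ZT12, 4 swinging members were lower in LRE (background 0.403%) and 1 remaining member was higher (0.188%) by edgeR, against 0.591% of rows called in either direction. The 5 calls fell to 0 without any of LRE ZT12 replicates 1, 2 and 3 or KO ZT12 replicates 1 and 4 (0% to 0.161% of all rows). They fell to 1 without LRE ZT12 replicate 4 (0.107%). They fell to 3 without WT ZT12 replicate 2, LRE ZT16 replicate 1 or 3, or KO ZT20 replicate 2 (0.43% to 0.483%). The share of all rows called fell with the count of members.

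Rhythms were tested with a 24 h cosine fitted to each genotype by edgeR; 1 cycle was sampled, so the period is assumed. In WT, 38 of 66 tested members were rhythmic (background 46.1%), 23 of them with a peak between ZT16 and ZT20. The rule chose rows that were low in WT outside ZT16, so the level at ZT16 bears on this count: without the 4 WT libraries of ZT16, 13 members were called, against 7.09% of all rows in that fit. In LRE 7 members were rhythmic (background 7.2%), 6 of them peaking between ZT20 and ZT24, and in KO 5 (1.48%), 4 of them peaking in that window. All 5 in KO were opposed rows, and 1 member was called in both genotypes. When ZT16 was left out in every genotype, 24 members were called in LRE, 17 in KO and 16 in WT, and the shares of all rows were 17.6%, 11.7% and 7.92%.

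Rank 20 and rank 14 had the smallest p in LRE, with amplitudes (peak over mean, log2) of 1.55 (edgeR adjusted p = 0.00569) and 1.61 (adjusted p = 0.0058). Both calls were lost without replicate number 2 (edgeR adjusted p = 0.143 and 0.103). In KO these rows had amplitudes of 0.35 and 0.29 and were not called. In KO the smallest p belonged to rank 28, with an amplitude of 1.53 (edgeR adjusted p = 0.0057), and rank 17, with 1.17 (adjusted p = 0.0121). Rank 28 was not called without replicate number 2 (edgeR adjusted p = 0.0744), and rank 17 without any of the 4 numbers (0.0588 to 0.164). Rank 28 was at 597, 424, 346 and 169 CPM in KO at ZT20 and at 36.1, 57.8, 71.1 and 30.2 CPM at ZT8, without overlap.

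The count in LRE moved with single libraries. It was 4 without any of the 4 LRE libraries of ZT12, LRE ZT8 replicate 1, 3 or 4, or LRE ZT20 replicate 2, and 12 without WT ZT0 replicate 4. Without LRE ZT0 replicate 3 it was 19, without LRE ZT4 replicate 1 it was 21, and without LRE ZT4 replicate 3 it was 13. Without LRE ZT16 replicate 1 it was 11, and without LRE ZT20 replicate 1 it was 20. The share of all rows called moved with it, and was at most 4.30% where the count was 4 and from 7.63% to 15.6% where it was higher. The count in KO was 3 without KO ZT0 replicate 3 or KO ZT20 replicate 1 or 3, and 2 without KO ZT8 replicate 1 or 4 or KO ZT20 replicate 2 or 4, with 0.564% to 1.07% of all rows called.

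The rhythm differed between LRE and KO in 29 of 66 tested members by edgeR (background 16%). These were 16 swinging, 9 opposed and 4 remaining rows, and 17 of them were among the 19 rows lower in LRE at ZT8. For rank 32 the fitted amplitude was 3.47 in LRE, with a peak at 21.9 h, and 1.30 in KO, with a peak at 8.3 h (edgeR adjusted p for the difference 0.00242). For rank 17 it was 0.65 in LRE, with a peak at 10.0 h, and 1.17 in KO, with a peak at 22.6 h (adjusted p = 0.00115). The 29 fell to 19 without LRE ZT8 replicate 3, to 17 without KO ZT8 replicate 1 and to 18 without KO ZT8 replicate 4. In these fits 12.9%, 11.8% and 10.7% of all rows were called. Without replicate numbers 1 to 4 in turn, it was 19, 5, 17 and 3, with 14.6%, 4.11%, 9.43% and 1.66% of all rows called.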

How the data were processed

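The authors deposited whole-number counts as a single table with 180 columns and no row identifiers; 72 columns were matched to samples by library name, and 108 were not used. Per the file headers, the alignments behind the counts had been sorted and deduplicated. The submitters' processing notes list STAR 2.5.4b and the builds mm10 and GRCm38; for the counter, annotation and use of strand the sources used here give nothing. Any rows that hold no gene stayed in the library totals.

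Members were taken by the rule in the report, in CPM from column totals. Members, sets and tests were chosen with earlier results of these data known. Rows described singly were ranks 1 to 4 and 97 to 100, the 3 with the highest median CPM and the 2 with the smallest p in each of 6 tests; others are marked as chosen after their values were seen.

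Counts of all 72 libraries entered 1 fit in edgeR 4.0.16 (R 4.3.3). Rows were filtered by filterByExpr over the 18 groups (at least 10 counts, total at least 15), scaled by TMM and tested by the quasi-likelihood method, and p-values of the 3724 rows were adjusted by Benjamini and Hochberg. Levels came from a fit of group means and rhythms from a cosinor with a 24 h period. A standard error is the log2 fold change over the square root of F. Scripts were tested on simulated data. No 2 libraries of a group agreed within sampling noise (chi-square per degree of freedom 1.29 to 39.5 over 108 pairs). Alternatives were RLE and upper-quartile scaling, no filter, DESeq2 1.42.0, a replicate block, left-out libraries, and other forms of the rule.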

Additional observations from a re-analysis of the deposited data

Results flagged for a closer look

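In groups of 4 libraries, a value is reported here when its gap to the nearest other value is large against the range of the group; chance gives about 1 such group in 20. Of 72 groups of library shares, 3 held such a value, where 3.6 would arise by chance, and of 72 groups of values of ranks 1, 7, 20 and 82, 5 did. WT ZT0 replicate 4 was the library concerned most often: all members held 4.54% of its counts and swinging members 3.94%, and rank 1 was at 5586 CPM, against 11.5 to 152 CPM in the other 3 libraries. In WT ZT4 replicate 1, swinging members held 0.0997% of counts and rank 1 was at 72.3 CPM. Rank 1 was also far from its group in LRE ZT8 replicate 4, at 27.7 CPM, and in KO ZT0 replicate 4, at 5415 CPM. Rank 7 was at 71.0 CPM in WT ZT16 replicate 1, against 2.28 to 4.25 CPM in the other 3 libraries.

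A difference between genotypes under the same contrast was found in 29 of 66 tested members, against 16% of all rows. Their 24 h rhythm differed between LRE and KO by edgeR's joint test of both rhythm terms. The count was 5 without replicate number 2 (4.11% of all rows) and 3 without number 4 (1.66%).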

How the results depend on the processing

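The list itself depended on the rule's settings. Of the 100 members, 88 were taken again with TMM-scaled totals, 77 with log2(CPM + 1), 57 with means in place of medians, 44 with a count in at least 30 columns, and 31 after thinning to 34098 counts, where 52 members passed the filter. Without WT ZT12 replicate 2 and WT ZT20 replicate 4, 83 were taken, and without WT ZT0 replicate 4, added after seeing the data, 85; leaving out 1 replicate number gave 62 to 68. Fewer counts change which rows are kept, but not every loss came from the filter, since 31 of the 52 that passed after thinning were taken. With 30 columns every member still passed, and other rows among the 10198 kept took places. After thinning, 5 swinging, 16 opposed and 10 remaining rows were taken again, and 6 of ranks 1 to 20.

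Leaving out single libraries or replicate numbers gave 20 to 34 calls for KO against WT at ZT16, 12 to 26 for LRE against WT, 0 to 25, 0 to 6 and 2 to 23 for LRE against KO at ZT8, ZT12 and ZT20 (0, 0 and 0 to 18 by replicate number), 30 to 43, 0 to 21 and 0 to 6 for rhythm in WT, LRE and KO, and 3 to 35 for their difference. The share of all rows called differed between these settings. The 12 calls for LRE against WT, without replicate number 2, were 18.2% of tested members against 21% of all rows. Of the 12, 8 were higher, against 3.76% of all rows. The 20 for KO, without number 3, were 30.3% against 24%. The 30 for rhythm in WT, without number 2, were 45.5% against 31.7%. The 3 for the rhythm difference, without number 4, were 4.55% against 1.66%. LRE against KO at ZT12 gave 0 calls without the filter (0% of all rows) and 11 by DESeq2 (3.46%). Without ZT16, rhythm counts were 16 in WT (7.92% of all rows), 24 in LRE (17.6%) and 17 in KO (11.7%). Without only the WT libraries of ZT16, the count in WT was 13 (7.09%). The cause was not tested. Rank 1 in KO at ZT16, at -0.94, was at -2.17 to 0.31 with a replicate number left out (0.31 without replicate 1), and rank 4, at -1.01, at -1.46 to 0.50, or 0.15 without WT ZT16 replicate 1. In LRE, rank 2, at -1.66, was at -2.12 to 0.30, or 0.31 without WT ZT16 replicate 1. Rank 4 in LRE, at 0.03, was at -0.018 with RLE scaling, -0.031 by DESeq2, 1.19 without WT ZT16 replicate 1, -0.66 without replicate 3, -0.19, -0.16 and -0.04 without WT ZT16 replicates 2, 3 and 4, and -0.21 and -0.44 without LRE ZT16 replicates 1 and 3. Replicate numbers did not pair libraries, with a mean correlation of 0.0015 between libraries of the same number. With the replicate block, calls at ZT12 were 1 (0.403% of all rows) and rhythm calls in LRE 11 (7.68%). The other counts stayed within 1.5 times. Depth limits the rest: 45 members had a median under 50 CPM, where 1 count is 11.6 CPM at the median total. Depth was also lower in KO than in WT and LRE.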
